A study of Mus musculus with 103 samples.

Results

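Nuclear tRNAs of adult mouse cortex were profiled by dm-Hydro-tRNAseq in 3 Nsun2 KO mice and 3 WT mice, which are 6 of the 103 samples of the study. Every nuclear isodecoder in the table was taken, 162 in all, 152 of them outside tRNA-Gly. Isodecoders are tRNAs that share an anticodon and differ elsewhere, and they were summed to 48 anticodons (44 outside tRNA-Gly) and to 22 amino acid families (21 outside tRNA-Gly). KO mice carried floxed Nsun2 with Camk2a-Cre, and WT mice carried floxed Nsun2 without Cre. By the study's methods controls were age- and sex-matched adults, either homozygous or heterozygous for the floxed allele. In heterozygotes the other allele is written as a minus sign and is not described further. Which of these genotypes each WT mouse had is not given in the sources used here. In these mice loxP sites flank exon 6 of Nsun2, and Cre driven by Camk2a removes it in excitatory neurons of the forebrain, so that inhibitory neurons and glia of the KO cortex keep Nsun2. The tissue is bulk cortex, in which less tRNA per cell and fewer cells of a type cannot be told apart. These libraries hold tRNA only and give no Nsun2 mRNA against which the genotype labels could be checked.

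NSUN2 is a methyltransferase that places 5-methylcytosine (m5C) on tRNAs, mainly where the variable loop meets the T stem, at positions 48 to 50. tRNAs that lack this mark are known to be cut more readily by angiogenin near the anticodon. The amount of a tRNA is usually stated as a part of all tRNA sequenced, so that a change in an abundant tRNA moves the stated amount of all the others. Which tRNAs outside tRNA-Gly differed between the genotypes, and how far the answer rested on the scale chosen for the libraries, was the question put to the data here.

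The sequences below are tRNA genes of anticodons that the results turn on, shown so that the methylated region and the near identity of some tRNAs can be seen. Each is the most frequent nuclear gene sequence of its anticodon in RefSeq (build GRCm38.p6), given 5′ to 3′ as DNA without the CCA end, with the anticodon (positions 34 to 36) and positions 48 to 50 in capitals. RefSeq does not use the isodecoder names of the table, so each sequence stands for an anticodon and not for a named isodecoder.
Gly-GCC: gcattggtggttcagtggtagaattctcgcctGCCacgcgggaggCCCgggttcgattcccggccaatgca
Pro-AGG: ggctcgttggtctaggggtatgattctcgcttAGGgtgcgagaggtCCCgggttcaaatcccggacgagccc
Pro-CGG: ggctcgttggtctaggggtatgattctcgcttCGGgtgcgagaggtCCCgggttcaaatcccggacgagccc
Pro-TGG: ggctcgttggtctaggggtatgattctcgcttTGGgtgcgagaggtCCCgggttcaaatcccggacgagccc
Asp-GTC: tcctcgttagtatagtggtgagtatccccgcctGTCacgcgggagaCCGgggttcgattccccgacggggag
Gln-CTG: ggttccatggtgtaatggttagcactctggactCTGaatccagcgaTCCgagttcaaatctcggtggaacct
Asn-GTT: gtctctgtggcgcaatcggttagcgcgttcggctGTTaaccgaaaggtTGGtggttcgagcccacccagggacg
The Gly-GCC gene shown lies at chr1:171044985-171045055 on the plus strand (8 of 14 annotated genes have this sequence), Pro-AGG at chr1:165641634-165641705 on the plus strand (6 of 6), Pro-CGG at chr1:165642271-165642342 on the minus strand (3 of 3) and Pro-TGG at chr3:51358354-51358425 on the plus strand (4 of 7). Asp-GTC lies at chr1:171037029-171037100 on the minus strand (13 of 16), Gln-CTG at chr9:64738046-64738117 on the plus strand (4 of 10) and Asn-GTT at chr1:171033942-171034015 on the minus strand (9 of 13). Each is annotated as a tRNA gene with a single exon and lies whole within it. The Pro-AGG, Pro-CGG and Pro-TGG sequences differ from each other at 1 of 72 positions, the first of the anticodon, so a fragment that does not span the anticodon fits all of them. In 41 of the 44 anticodons outside tRNA-Gly a single number of cytosines at positions 48 to 50 was the most common among the gene copies. That number is used here, although the copies are not all alike. For example, 5 of 7 Pro-TGG genes and 7 of 11 Ala-TGC genes have 3 cytosines. By this number cytosine fills all of these positions in 11 anticodons, those of Pro among them, and none of them in 5, Asn-GTT among them.

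Values are CPM, the reads of a tRNA scaled to a common library size. Every CPM of a library was a whole multiple of one step. With the step read as 1/12 of a read, a fraction that arises when a read that fits several tRNAs is shared out, the libraries held whole totals, which were 5027020, 4871618 and 5137121 reads in KO mice 1, 2 and 3, against 5354973, 5066546 and 6228809 reads in WT mice 1, 2 and 3. Of these, 1953179.5 to 2562310 reads in KO and 2302204 to 3136656 reads in WT fell in the 162 isodecoders. The rarest isodecoder of a library still had at least 52.3 reads, and the rarest anticodon at least 303.5. Only SeC-TCA and the initiator tRNA iMet-CAT had whole numbers of reads in every library at the anticodon level. Shared reads reached all other anticodon sums, so that values of related tRNAs are not separate measurements.

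In the tRNA pool of these mice, the share of tRNA-Gly was lower and that of Gln-CTG higher in KO than in WT. tRNA-Gly held 6.78%, 8.60% and 6.93% of the summed CPM in KO mice, against 14.5%, 17.9% and 11.9% in WT mice. Gln-CTG, which reads the CAG codon of glutamine and was the most abundant anticodon in every mouse, held 50.2%, 45.2% and 42.5% in KO, against 37.96%, 31.5% and 40.1% in WT. For either share the KO and WT mice did not overlap. Shares are parts of one sum, so a lower share of tRNA-Gly goes with higher shares elsewhere. For how many of the other anticodons the shares did not overlap was not counted. The mean share of Gln-CTG was 46.0% ± 3.88 in KO and 36.5% ± 4.49 in WT (SD, n = 3 each), a difference of 9.44 percentage points, and that of tRNA-Gly was 7.44% ± 1.01 in KO and 14.7% ± 2.98 in WT, a difference of -7.30 (exact two-sided permutation test, p = 0.1 for each, the smallest p that 3 against 3 allows).

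**Figure D1:**
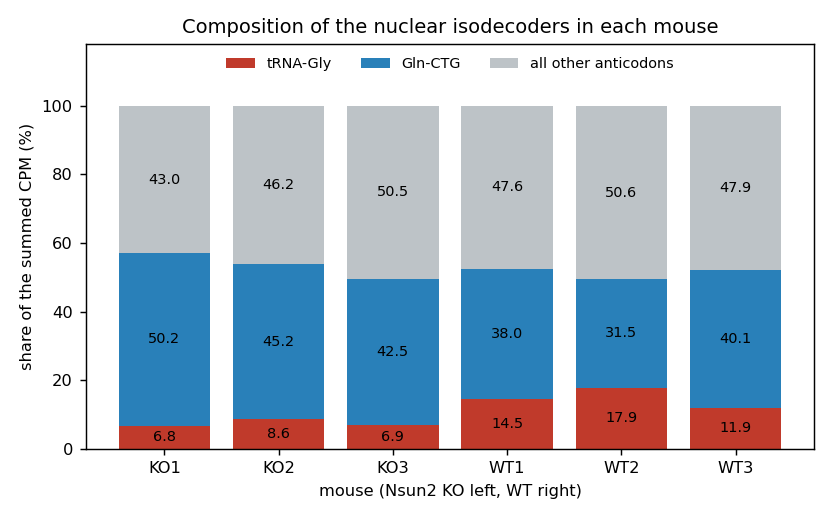
Share (%) of tRNA-Gly, Gln-CTG and all other anticodons in the summed CPM of the 162 isodecoders, by mouse, with KO mice on the left and WT mice on the right. Gln-CTG takes 42.5% to 50.2% in KO and 31.5% to 40.1% in WT, and tRNA-Gly 6.78% to 8.60% in KO and 11.9% to 17.9% in WT.

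Gln-CTG had 218680.3, 181325 and 212116 CPM in KO mice, against 171905, 143150.3 and 202165 CPM in WT mice. The highest WT mouse lay above the lowest KO mouse, so in CPM the genotypes overlapped, and the difference did not pass (log2 fold change 0.25, standard error 0.15, limma with Benjamini-Hochberg adjustment over 48 anticodons, adjusted p = 0.451). Set against all anticodons other than itself and tRNA-Gly, Gln-CTG had a ratio of 1.17, 0.980 and 0.841 in KO, against 0.798, 0.622 and 0.838 in WT (exact two-sided p = 0.1). KO mouse 3 and WT mouse 3 nearly met in that ratio. In YAMAT-seq, a second tRNA assay on these 6 mice that ligates adapters to mature tRNAs, Gln-CTG held 3.55%, 3.64% and 3.70% of nuclear tRNA in KO, against 3.89%, 3.69% and 3.85% in WT (exact two-sided p = 0.2). The genotypes overlapped in that share, with the lower mean in KO. Its YAMAT-seq normalized counts were 2131, 2676 and 2624 in KO, against 2995, 3454 and 2867 in WT. All KO mice lay below all WT mice in these counts (log2 fold change -0.33, limma, adjusted p = 0.169). This was not particular to Gln-CTG, and the other anticodons are listed with the YAMAT-seq values below. The difference in log2 fold change between the assays, taken from CPM and these counts, was -0.58 (YAMAT-seq minus dm-Hydro-tRNAseq). It did not pass (standard error 0.28, limma, adjusted p = 0.388 over 46 anticodons).

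The scale of the libraries moved the values of the other tRNAs. The 162 isodecoders summed to 435757, 400930.3 and 498783 CPM in KO, against 452844, 454393 and 503572 CPM in WT (exact two-sided p = 0.4), and outside tRNA-Gly to 406201, 366434 and 464209 CPM in KO, against 387404, 373256 and 443522 CPM in WT (exact p = 0.8). Outside tRNA-Gly and Gln-CTG together the sums were 187520.3, 185109 and 252093 CPM in KO, against 215499, 230106 and 241356 CPM in WT (exact p = 0.4). KO mouse 3 was high in each of these sums and KO mouse 2 low. The median log2 fold change of the 152 isodecoders outside tRNA-Gly was -0.09 in the deposited CPM and -0.01 when each library was divided by its sum. It was -0.13 after division by the sum outside tRNA-Gly, 0.05 after scaling by the median log ratio to the mean library, 0.06 after quantile normalization and 0.06 after division by the sum outside tRNA-Gly and Gln-CTG. Accordingly 92 of the 152 were lower in KO in the deposited CPM, 104 with the sum outside tRNA-Gly and 67 with the median log ratio.

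At the level of amino acid families 1 of 22, tRNA-Gly, was lower in KO (4.55% of the families tested) and 0 were higher (0%, limma). Outside tRNA-Gly 0 of 21 families passed, also with limma-voom on the recovered reads. At an unadjusted p under 0.05, 1 was lower and 1 was higher. The replicate number in the sample titles (1, 2 or 3) was also used as a block. With it, 1 family outside tRNA-Gly was lower, tRNA-Pro, and 1 was higher, tRNA-Asn (2 of 22 lower, 9.09%, and 1 of 22 higher, 4.55%). tRNA-Pro had 2909, 2049 and 4550.2 CPM in KO, against 4056, 3977 and 5370.1 CPM in WT. KO mouse 3 lay above 2 of the WT mice, and the log2 fold change was -0.56 (standard error 0.27, limma, adjusted p = 0.315, and 0.0335 with the block). tRNA-Asn had 2262, 3148 and 2791 CPM in KO, against 1561, 2075 and 1878 CPM in WT. The genotypes did not overlap, with KO higher, and the log2 fold change was 0.57 (standard error 0.24, limma, adjusted p = 0.245, and 0.0335 with the block).

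The direction of 14 of the 21 families held under the deposited CPM and the 4 scalings fixed for this comparison, with 7 lower and 7 higher in KO throughout, and 7 families changed sign. Those lower throughout were Pro (log2 fold change -0.59 to -0.23 over the scalings), Asp (-0.51 to -0.32), Glu (-0.36 to -0.14), initiator Met (-0.33 to -0.15), Leu (-0.27 to -0.03), His (-0.22 to -0.04) and Ser (-0.20 to -0.02). Those higher throughout were Asn (0.53 to 0.74), Cys (0.30 to 0.57), elongator Met (0.17 to 0.45), Tyr (0.23 to 0.45), Gln (0.18 to 0.38), Thr (0.12 to 0.30) and Phe (0.00 to 0.21). Ala, Arg, Ile, Lys, Trp, Val and the selenocysteine tRNA SeC had both signs, all within 0.21 of 0. tRNA-Asn passed with the median log ratio (adjusted p = 0.0313) and with quantile normalization (0.00418). Under quantile normalization Cys (0.0221) and elongator Met (0.0106) passed as well. With block and median log ratio together, 5 of 22 families were higher (22.7%), namely Asn, Cys, Met, Thr and Tyr, and 3 were lower (13.6%), namely Gly, Asp and Pro (limma, adjusted p of 6.68e-05 for Gly to 0.0196 for Asp).

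**Figure D2:**
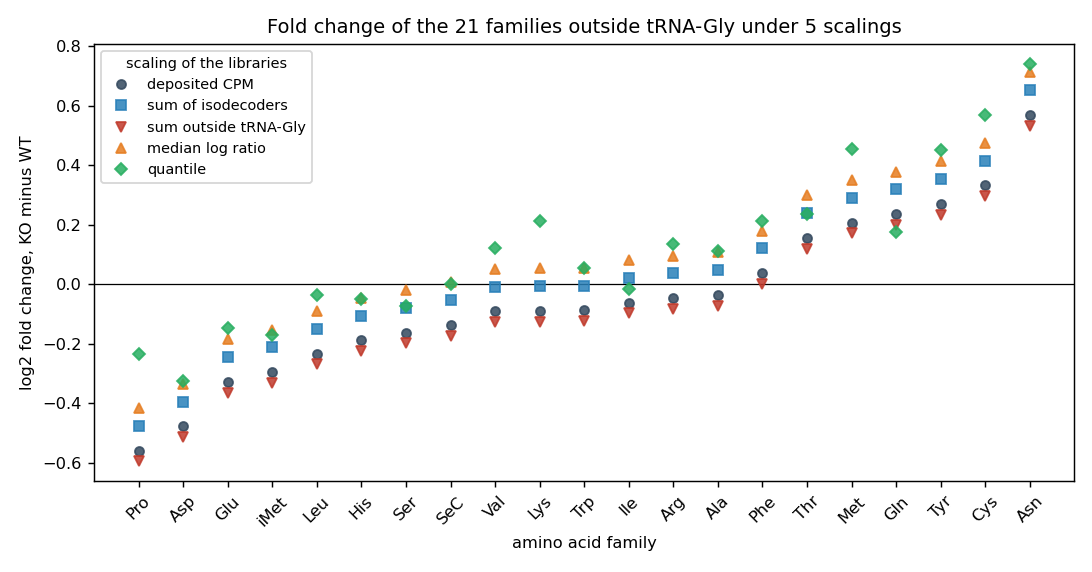
log2 fold change (KO minus WT) of each of the 21 amino acid families outside tRNA-Gly on the vertical axis, with one marker for each of 5 scalings of the libraries. Pro, Asp and Glu stay below 0 and Asn, Cys and Gln above 0 under every scaling, while Ala, Arg, Ile, Lys, Trp, Val and SeC lie on both sides.

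Summed by anticodon, 2 of 48 were lower in KO (4.17%) and 0 were higher (0%, limma), and these 2 were Gly-GCC and Gly-TCC. Gly-GCC, the main glycine anticodon, had 26149.95, 30151 and 30518 CPM in KO, against 59558, 73396 and 54901 CPM in WT, and it is given because the composition turns on it. Outside tRNA-Gly 0 of 44 passed, also with limma-voom. At an unadjusted p under 0.05, 3 were lower and 1 was higher. With the replicate number as a block, 3 of the 44 were lower and 1 was higher, against 6 of all 48 lower (12.5%) and 1 higher (2.08%). With block and median log ratio together 8 of 48 were lower (16.7%) and 6 higher (12.5%), 5 and 6 of them outside tRNA-Gly. Of the 44 anticodons, 28 had a negative fold change in the deposited CPM and 19 with the median log ratio. The 95% interval of the fold change included 0 for all but Pro-AGG, Pro-TGG, Pro-CGG and Asn-GTT.

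**Figure D3:**
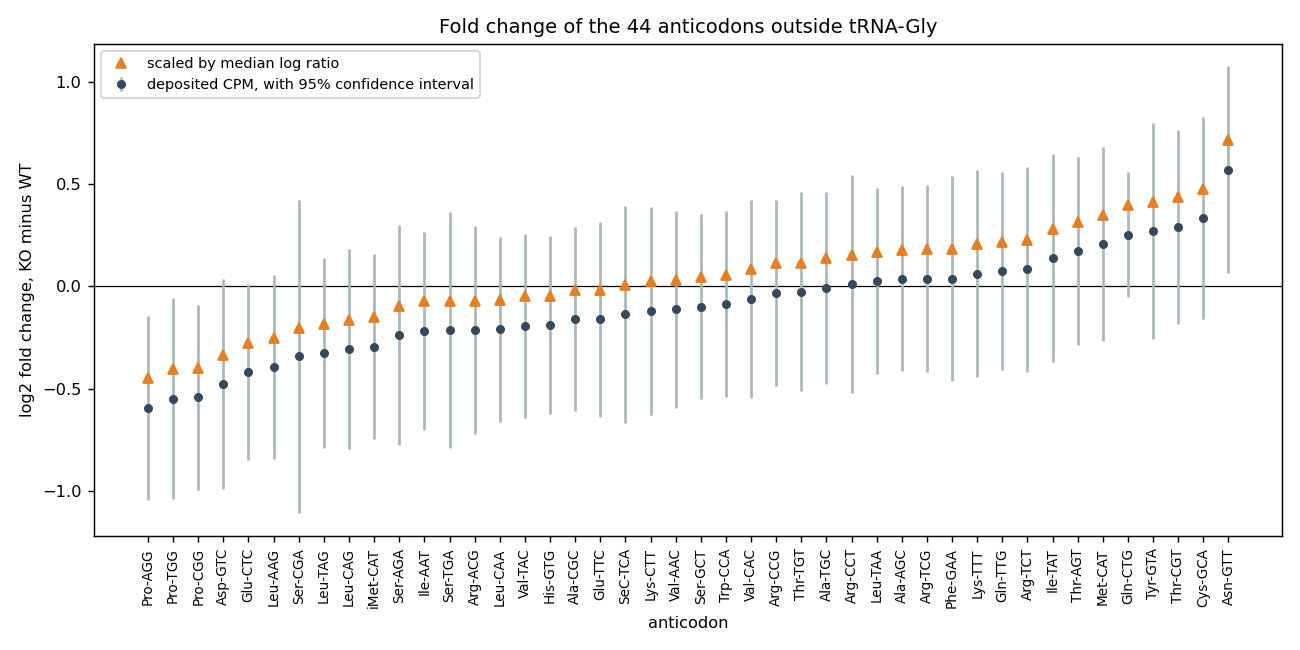
log2 fold change (KO minus WT) of the 44 anticodons outside tRNA-Gly, in order, as circles with 95% confidence intervals for the deposited CPM and as triangles after scaling by the median log ratio. The Pro anticodons are the lowest, at -0.59 to -0.54, and Asn-GTT is the highest, at 0.57, and the scaling moves the anticodons upwards together.

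The lowest fold changes were those of the proline anticodons, whose tRNAs carry cytosine at all of positions 48 to 50 in the sequences shown. Pro-AGG had 671, 479 and 1061 CPM in KO, against 943, 992 and 1254 CPM in WT. Its mean was 737 ± 296 CPM in KO and 1063 ± 167 CPM in WT (SD, n = 3 each), or 69.4% of WT. The log2 fold change was -0.59 (standard error 0.23, limma, adjusted p = 0.162, and 0.0291 with the block). Pro-CGG had 769, 540.4 and 1165 CPM in KO, against 1036, 1079 and 1339 CPM in WT, and Pro-TGG had 1469, 1029 and 2324 CPM in KO, against 2077, 1907 and 2778 CPM in WT. In each of them KO mouse 3 lay within the WT range and the other KO mice below it, while within each replicate number the KO mouse was lower. The log2 fold change was -0.54 for Pro-CGG and -0.55 for Pro-TGG (limma, adjusted p = 0.207 for each, and 0.0291 with the block). Without KO mouse 3 all passed (adjusted p = 0.00222 for Pro-AGG, 0.00406 for Pro-CGG and 0.00693 for Pro-TGG), and without KO mouse 2 the log2 fold change of Pro-AGG was -0.32. Passing without KO mouse 3 was not particular to proline. In that fit 9 of 48 anticodons were lower, 7 of 44 outside tRNA-Gly, and 0 were higher. The median log2 fold change of the 44 was -0.25 there. Since the sequences of the proline anticodons are almost the same, their values are not separate measurements.

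Asp-GTC and Glu-CTC, which carry the acidic amino acids, came next. Asp-GTC had 1810.2, 2743 and 2236 CPM in KO, against 2988, 4524 and 2215 CPM in WT. WT mouse 3 lay below KO mice 2 and 3, so the genotypes overlapped, and the log2 fold change of -0.48 (standard error 0.26) did not pass (limma, adjusted p = 0.370, and 0.0743 with the block). It passed with the block together with the median log ratio (0.0360) or the sum outside tRNA-Gly (0.0357). Glu-CTC, the second most abundant anticodon outside tRNA-Gly in WT, had 28507, 32321 and 42007 CPM in KO, against 40158, 52488 and 43877 CPM in WT. Only KO mouse 3 reached the WT range, and the log2 fold change was -0.42 (standard error 0.22, limma, adjusted p = 0.333, 0.0528 with the block, and 0.0276 with the block and the sum outside tRNA-Gly). The other glutamate anticodon, Glu-TTC, had 19078, 19158 and 21026 CPM in KO, against 22398, 24779 and 19343 CPM in WT, a log2 fold change of -0.16 (adjusted p = 0.811).

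Leu-AAG and Leu-TAG, leucine tRNAs with a long variable arm, were the only anticodons outside tRNA-Gly with every KO mouse below every WT mouse, against 5 of 48 (10.4%) over all anticodons. Leu-AAG had 773, 766 and 764 CPM in KO, against 1086, 1118 and 847 CPM in WT. The KO mice were nearly equal and the WT mice spread, and the log2 fold change was -0.39 (standard error 0.23, limma, adjusted p = 0.410). Leu-TAG had 1085, 1068 and 1131 CPM in KO, against 1447, 1465 and 1219 CPM in WT (log2 fold change -0.33, adjusted p = 0.672). Only Leu-AAG of the 2 passed with block and median log ratio together (adjusted p = 0.017).

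Asn-GTT had the highest fold change and was the only anticodon with every KO mouse above every WT mouse (1 of 48, 2.08%). Asn-GTT decodes both asparagine codons, has queuosine in place of G at the first anticodon position in mouse, and holds no cytosine at positions 48 to 50 in any of its 13 annotated genes. It averaged 2734 ± 446 CPM in KO and 1838 ± 259.6 CPM in WT (SD, n = 3 each), or 149% of WT, with the values of each mouse as given for its family. The log2 fold change of 0.57 (standard error 0.26) did not pass in the deposited CPM (limma, adjusted p = 0.207) and passed with the block (0.0291) and with quantile normalization (0.0187), but not with the median log ratio (0.0619). It is the only anticodon of its family, so these are the same values as those of tRNA-Asn. The pass of tRNA-Asn with the median log ratio (0.0313) came from the fit and adjustment over families, and is not a separate result.

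The other anticodons with high fold changes overlapped between the genotypes. Cys-GCA had 1734, 1724 and 2932 CPM in KO, against 1179.7, 1861 and 1998 CPM in WT (log2 fold change 0.33, adjusted p = 0.680). Tyr-GTA, a tRNA made from an intron-containing precursor, had 6371, 7848 and 12752 CPM in KO, against 5698, 7967 and 8012 CPM in WT (0.27, adjusted p = 0.784). KO mouse 3 decided these values, and without it the log2 fold change was 0.079 for Cys-GCA and -0.014 for Tyr-GTA. Cys-GCA also rested on WT mouse 1, without which it was 0.097. Thr-CGT had 391.98, 512 and 505 CPM in KO, against 335, 461 and 358 CPM in WT (0.29, adjusted p = 0.680), and elongator Met-CAT had 1341, 1494 and 1916 CPM in KO, against 1359, 1304 and 1407 CPM in WT (0.21, adjusted p = 0.784, and a log2 fold change of 0.062 without KO mouse 3). None of these 4 passed with the block alone, and all of them did with block and median log ratio together (limma, adjusted p of 0.00446 for Thr-CGT to 0.0172 for Tyr-GTA).

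**Figure D4:**
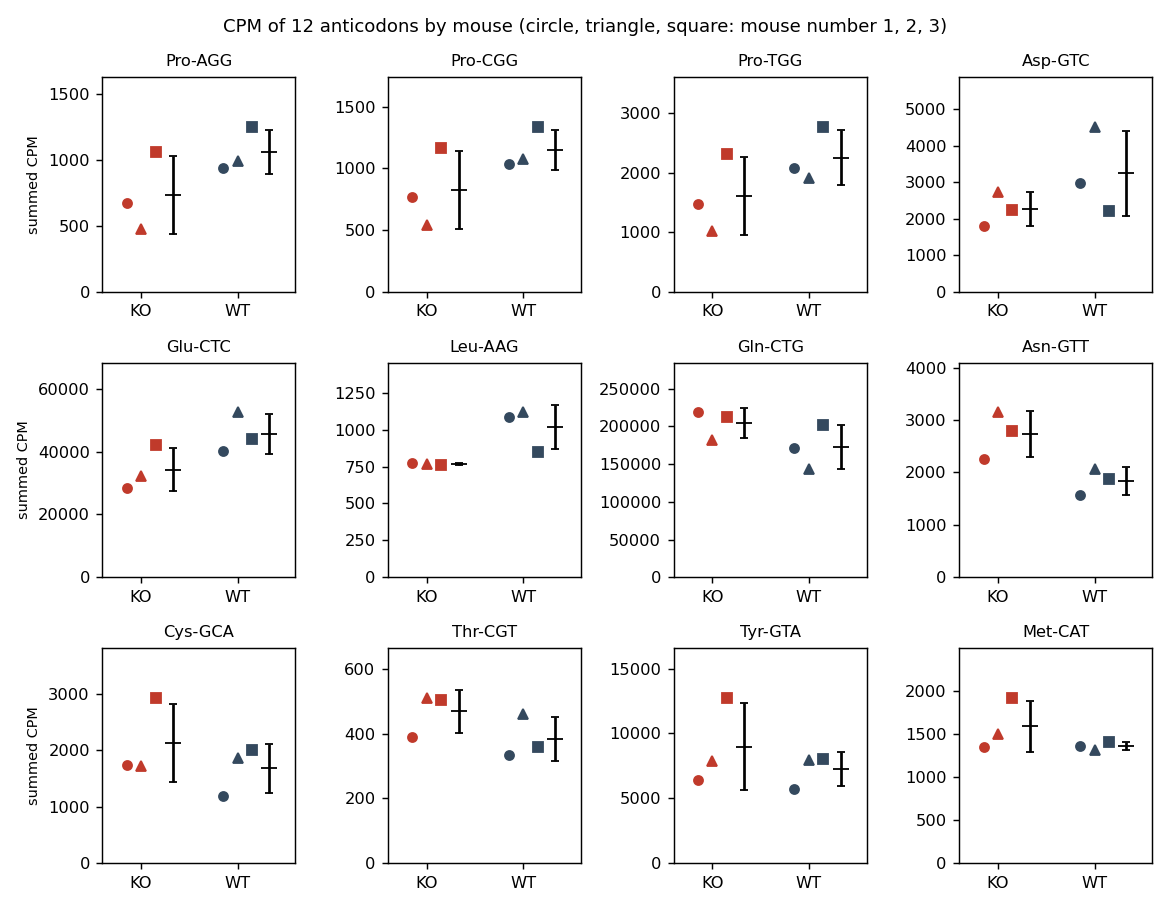
CPM of 12 anticodons outside tRNA-Gly in each mouse, with KO on the left and WT on the right of each panel, and the mean with its SD (n = 3) as a bar beside the points. KO mouse 3 (square) is the highest KO mouse in the proline panels, and in the Asn-GTT panel the KO mice, at 2262 to 3148 CPM, lie above the WT mice, at 1561 to 2075 CPM.

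Grouped by what is known of their structure or modification, the anticodons outside tRNA-Gly are described beside the median of all 44, which was -0.11 in the deposited CPM and 0.04 with the median log ratio, and no test was made. Glu-TTC, Glu-CTC, Asp-GTC, Val-AAC and Pro-TGG stand for the tRNAs outside tRNA-Gly for which bisulfite assays of m5C were designed. These 5 were all negative, with a median of -0.42, and 4 of 5 were negative with the median log ratio, with a median of -0.28. The 10 with a long variable arm (leucine, serine and selenocysteine) had a median of -0.23 with 9 negative, and of -0.08 with 7 negative after that scaling. The 8 that carry inosine at the first anticodon position had a median of -0.21. The 9 with 3-methylcytosine in the anticodon loop, which the demethylation step of the assay removes, had a median of -0.03, and the 4 made from intron-containing precursors one of 0.11. Asp-GTC and Val-AAC, which Dnmt2 can methylate in the anticodon loop, had a median of -0.30. By the first base of the anticodon the medians were -0.21 for A (8 anticodons), -0.12 for C (15), 0.04 for G (7) and -0.02 for T (14). The 4 queuosine tRNAs were split, with Asn-GTT and Tyr-GTA positive and Asp-GTC and His-GTG negative.

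Anticodons were also grouped by the most common number of cytosines at positions 48 to 50 among their gene copies. The 11 with 3 had a median log2 fold change of -0.16, with 9 negative. They held Pro-AGG, Pro-CGG and Pro-TGG, the 3 of all 44 that were lower with the block. The values of these 3 are not separate measurements, since their sequences are almost the same. The 16 with 2 had a median of -0.11 with 9 negative, and the 9 with 1 a median of -0.21 with 8 negative. The 5 with none (Asn-GTT, Ile-TAT, Arg-CCG, Arg-CCT and Arg-TCG) had a median of 0.04, with 4 positive, and held the 1 that was higher with the block. With the median log ratio the medians were -0.02, 0.04, -0.07 and 0.18 for 3, 2, 1 and 0 cytosines. This grouping was made after the fold changes were known and has no test, and the order of the medians did not follow the number of cytosines.

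Among isodecoders 8 of 162 were lower in KO (4.94%) and 0 were higher (0%, limma), 1 and 0 of them outside tRNA-Gly, and with the block 28 were lower (17.3%) and 4 higher (2.47%), 20 and 4 of them outside tRNA-Gly. The one that passed without the block was Leu-TAA-1-1, with 10.4, 11.7 and 17.5 CPM in KO, against 30.9, 30.99 and 28.4 CPM in WT (log2 fold change -1.16, adjusted p = 0.0112). Without KO mouse 1 or 2 or WT mouse 2 or 3 it did not pass (adjusted p = 0.0632, 0.0999, 0.0503 and 0.0762), and it lies below the minimum of 100 CPM. Leu-TAA-1-1 was under 20 CPM in every KO mouse and over it in every WT mouse. It was therefore kept in the deposited values through WT alone. Among isodecoders this rare, that cutoff itself favours those that differ between the genotypes. How far it shaped this call was not tested. With the median log ratio 7 were lower (4.32%) and 2 higher (1.23%), and with block and median log ratio together 27 were lower (16.7%) and 16 higher (9.88%). The 2 higher isodecoders were Asn-GTT-3-1 and Met-CAT-1-1 (adjusted p = 0.0349 for each with the median log ratio). The KO mice were all below the WT mice in 25 of the 162 (15.4%) and all above them in 2 (1.23%). limma-voom gave 8 and 0 as well, and 15 isodecoders outside tRNA-Gly were lower and 3 higher in limma where p was not adjusted (p under 0.05). Members of the valine family were unlike each other. Val-CAC-3-1 had 507, 561 and 724 CPM in KO, against 859, 843 and 1052 CPM in WT, and Val-AAC-4-1 had 1070.5, 1418 and 1195 CPM in KO, against 2042, 2022 and 1485 CPM in WT. Neither overlapped between the genotypes, and the log2 fold change was -0.63 for Val-CAC-3-1 (limma, adjusted p = 0.170, and 0.00969 with the block) and -0.59 for Val-AAC-4-1 (0.234, and 0.0117 with the block). Val-AAC-1-1, which is more abundant, had 8176, 7659 and 12568 CPM in KO, against 9246, 7416 and 12119 CPM in WT, a log2 fold change of -0.03.

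The Gln-CTG isodecoders overlapped between the genotypes, and those with the highest fold changes passed only with the block or another scaling, or without WT mouse 3. Gln-CTG-5-1 had 19194, 17728 and 20115 CPM in KO, against 12068, 10937 and 17981 CPM in WT (log2 fold change 0.51, standard error 0.22, limma, adjusted p = 0.241, 0.0117 with the block and 0.0384 with each library divided by its sum). Gln-CTG-4-1 had 18061, 16634 and 18587 CPM in KO, against 11746, 10474 and 16897 CPM in WT (0.48, adjusted p = 0.272, and 0.0186 with the block). WT mouse 3 alone reached the KO range in both, and without it Gln-CTG-5-1 passed (adjusted p = 0.0454). The larger Gln-CTG-1-1, Gln-CTG-2-1 and Gln-CTG-3-1 had log2 fold changes of 0.16, 0.20 and 0.24, and none of them passed.

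Further isodecoders passed with the block. Among the rarest, Ala-AGC-2-1 and Ala-TGC-1-1 had log2 fold changes of -0.76 and -0.79 and rested on 126.2 to 327.2 and 78.6 to 222.9 reads a library (7.4e-05 and 1.18e-05 with the block). Neither passed without the block, and the fits with the block had only 2 residual degrees of freedom. Glu-CTC-2-1 had 157, 154 and 236 CPM in KO, against 236, 343 and 266 CPM in WT (log2 fold change -0.63, adjusted p = 0.170, and 0.0133 with the block). The genotypes did not overlap, although the highest KO mouse and the lowest WT mouse nearly met. Asp-GTC-3-1 had 25.4, 35.7 and 53.0 CPM in KO, against 50.9, 109 and 48.2 CPM in WT (-0.81, adjusted p = 0.158, 7.16e-05 with the block and 0.0321 with the sum outside tRNA-Gly). Its genotypes overlapped, and it rested on 127.8 to 552.3 reads a library. Tyr-GTA-6-1, the main tyrosine isodecoder, had 5038, 6427 and 10566 CPM in KO, against 3939, 6109 and 5775 CPM in WT (0.43, adjusted p = 0.462, and 0.0453 with the block). Without KO mouse 3, Glu-CTC-2-1, Asp-GTC-3-1 and Val-CAC-3-1 passed without a block as well (adjusted p = 0.0118, 0.0188 and 0.0188). In that fit 23 of 162 isodecoders were lower, 16 of 152 outside tRNA-Gly, and 0 were higher.

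Ratios within a library do not depend on a factor that multiplies the whole library, though quantile normalization, which is not such a factor, does change them. Of 156 log ratios of an isodecoder to the rest of its anticodon, 6 passed (3.85%, limma), and 21 did with the block (13.5%). After quantile normalization 2 passed as lower and 2 as higher in KO, against 3 and 3 in the deposited CPM. Of these 6, those outside tRNA-Gly were Thr-CGT-3-1, Thr-CGT-2-1 and the complementary pair Leu-TAA-1-1 and Leu-TAA-2-1. Thr-CGT-3-1 held 3.86%, 3.86% and 4.38% of Thr-CGT in KO, against 7.15%, 5.99% and 7.01% in WT. All KO mice were below all WT mice (log2 ratio -0.75, standard error 0.10, adjusted p = 0.0240). Thr-CGT-3-1 rested on 76 to 156.4 reads a library. Its mean was under 20 CPM in KO and over it in WT, so it was kept in the deposited values through WT alone. Thr-CGT-2-1 held 71.7%, 70.4% and 72.8% in KO, against 63.9%, 64.6% and 66.3% in WT (0.44, standard error 0.07, adjusted p = 0.0351). Leu-TAA-1-1, which rested on 52.3 to 177 reads a library, held 1.20%, 1.09% and 1.43% of Leu-TAA in KO, against 3.06%, 3.47% and 2.37% in WT (-1.21, standard error 0.17, adjusted p = 0.0240). Leu-TAA-1-1 was also kept through WT alone. With 1 mouse left out, between 0 and 2 of the 156 ratios passed, and 0 passed without any one of KO mice 1, 2 and 3 or WT mouse 1. With a minimum of 100 CPM, 0 of 105 ratios outside tRNA-Gly passed.

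Shares in Met-CAT, Tyr-GTA and Val anticodons, named after their values were seen, are given for comparison. Met-CAT-1-1 held 54.4%, 59.6% and 58.1% of elongator Met-CAT in KO, against 47.3%, 48.4% and 50.9% in WT (log2 ratio 0.49, limma, adjusted p = 0.0589, and 0.0248 with the block). Tyr-GTA-6-1 held 79.1%, 81.9% and 82.9% of Tyr-GTA in KO, against 69.1%, 76.7% and 72.1% in WT (0.71, adjusted p = 0.0988, and 0.0248 with the block), and Tyr-GTA-1-1 held 3.71%, 3.14% and 2.98% in KO, against 5.79%, 4.60% and 4.80% in WT (-0.65, adjusted p = 0.0589, and 0.0106 with the block). Val-CAC-3-1 held 3.15%, 3.75% and 2.89% of Val-CAC in KO, against 4.66%, 5.64% and 4.24% in WT (-0.59, adjusted p = 0.105, and 0.0106 with the block). The genotypes did not overlap in any of these shares. Of the 40 anticodons outside tRNA-Gly with more than 1 isodecoder, the most abundant one had a higher mean share in KO in 27 and a lower one in 13. In 8 of the 40 all KO mice were above all WT mice in that share, and in 0 below. Within tRNA-Gly the same held for Gly-CCC-1-1, at a mean of 56.5% in KO and 49.1% in WT, while Gly-GCC-2-1 overlapped. How often the genotypes were apart over all 156 isodecoder ratios was not counted. These counts therefore have no background beside them and were not tested.

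**Figure D5:**
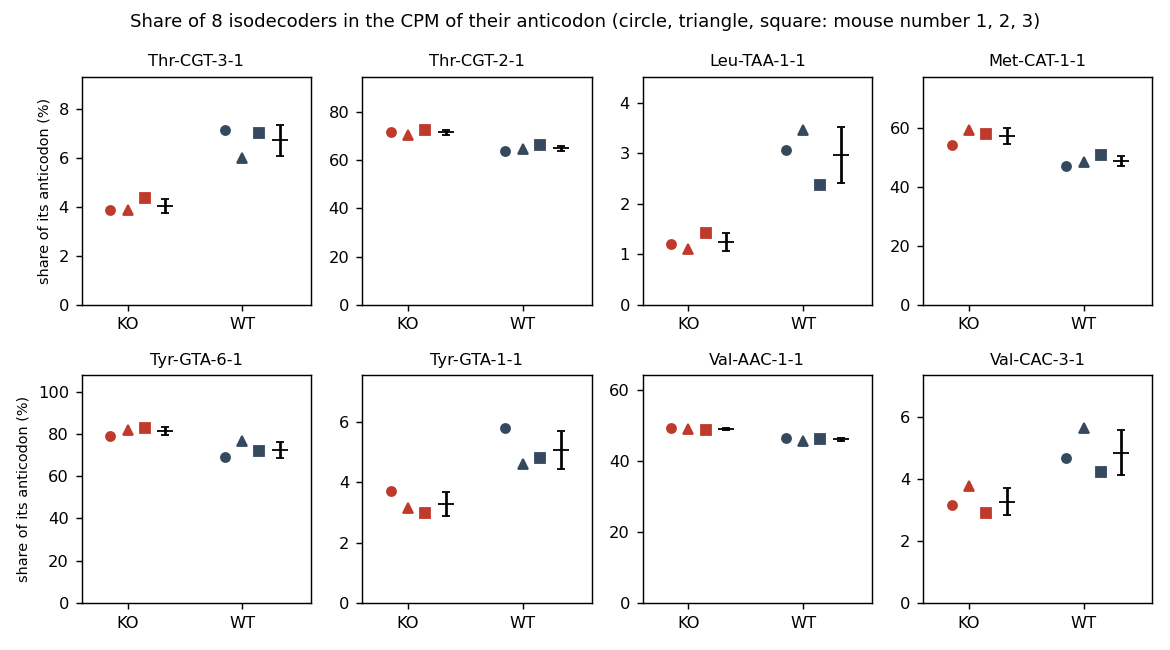
Share (%) of 8 isodecoders in the CPM of their own anticodon in each mouse, with KO on the left and WT on the right of each panel, and the mean with its SD (n = 3) as a bar beside the points. The panels were chosen with the values known. The KO and WT mice do not overlap in any of them, for example 3.86% to 4.38% in KO and 5.99% to 7.15% in WT for Thr-CGT-3-1. Thr-CGT-3-1 and Leu-TAA-1-1 were kept in the deposited values through WT alone.

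Between the anticodons of a family, 1 of 34 ratios passed (2.94%, limma), 4 did with the block (11.8%) and 0 did after quantile normalization. The ratio that passed lay within tRNA-Gly, where Gly-GCC held 88.5%, 87.4% and 88.3% of the family in KO, against 91.0%, 90.5% and 91.4% in WT. Outside tRNA-Gly 0 of 30 passed, with 2 lower at an unadjusted p under 0.05. Ile-AAT held 52.4%, 55.6% and 50.2% of tRNA-Ile in KO, against 59.7%, 61.7% and 54.8% in WT (log2 ratio -0.35, adjusted p = 0.344, and 0.0165 with the block). Ala-CGC held 25.4%, 23.2% and 24.3% of tRNA-Ala in KO, against 26.3%, 26.5% and 26.6% in WT (-0.17, adjusted p = 0.344, and 0.143 with the block). The proline anticodons kept close to the same proportions, with Pro-AGG at 23.1%, 23.4% and 23.3% of tRNA-Pro in KO, against 23.2%, 24.9% and 23.3% in WT.

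The same 6 mice were set beside their YAMAT-seq values, summed by anticodon for the 46 anticodons with a mean normalized count of at least 10 there. The assays share these mice, so they are not independent of each other as samples. In YAMAT-seq Pro-AGG had 2476, 3838 and 3405 normalized counts in KO, against 4527, 6409.6 and 4005 in WT. All KO mice were below all WT mice, which was not particular to proline there. Of the 46, the others wholly lower in KO were Pro-CGG, Pro-TGG, Asp-GTC, Gln-CTG, Gly-CCC, Gly-GCC, Gly-TCC, iMet-CAT, Lys-CTT and Thr-TGT. Those wholly higher were Ala-AGC, Ala-CGC, Ala-TGC, Glu-TTC, His-GTG, Leu-CAA, Ser-AGA, Ser-TGA and Trp-CCA, with His-GTG nearly meeting. In YAMAT-seq 2 of 46 anticodons passed (4.35%, Gly-TCC and Trp-CCA). The log2 fold change of Pro-AGG there was -0.61 (adjusted p = 0.0649, limma) beside -0.59 in dm-Hydro-tRNAseq. Pro-CGG and Pro-TGG had -0.63 and -0.62 in YAMAT-seq, and Asp-GTC had -0.47 there beside -0.48. With YAMAT-seq libraries scaled to their sum outside tRNA-Gly, the log2 fold changes were -0.37 for Pro-AGG and -0.22 for Asp-GTC, 0.30 for Asn-GTT, 0.17 for Glu-CTC and -0.08 for Gln-CTG. Before that scaling Asn-GTT, with 379.7, 320.4 and 323 normalized counts in KO, against 342, 297 and 349 in WT, had a log2 fold change of 0.05 in YAMAT-seq beside 0.57, and Glu-CTC had -0.07 beside -0.42. The assays' fold changes differed for 0 of 46 anticodons (0%, limma on the difference within each mouse), with 5 at an unadjusted p under 0.05. The difference (YAMAT-seq minus dm-Hydro-tRNAseq) was -0.022 for Pro-AGG (standard error 0.40) and -0.52 for Asn-GTT (standard error 0.28, adjusted p = 0.388).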

How the data were processed

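Total RNA of adult cortex was size-selected to tRNA, demethylated, partly hydrolysed and sequenced as short fragments. According to the study's methods, reads were trimmed with cutadapt and aligned with BWA, with at most 2 mismatches, to mature nuclear and mitochondrial tRNA sequences, and counts were corrected for reads that fit several tRNAs. Versions and builds are not given in the sources used here. The authors deposited CPM for dm-Hydro-tRNAseq, kept where a group mean reached 20 CPM. For YAMAT-seq the authors deposited counts divided by a size factor per library, a normalized signal. Groups and the mice shared between assays came from the sample labels.

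Library sizes were recovered from the CPM steps as twelfths of a read, an inference from the values that covers counting error only. It was not used for the main test. log2(CPM + 1) was compared by limma 3.58.1 (trend) in R 4.3.3, with p-values adjusted by the Benjamini-Hochberg method over all isodecoders, anticodons or families and a threshold of 0.05. On this scale the change of rare isodecoders is understated. For anticodons, and in the fits with the block for isodecoders and families as well, the estimated prior degrees of freedom were infinite, so that standard errors follow a common trend. The fits with the block had 2 residual degrees of freedom. Ratios were tested by limma without trend, and single values by exact permutation. Python 3.11.15, numpy 2.4.6, pandas 2.3.3, scipy 1.17.1 and matplotlib 3.10.9 were used. The scripts were tested on simulated data.

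KO and WT mice with the same replicate number deviated together from their group means (correlations over isodecoders of 0.489, 0.717 and 0.715 for numbers 1, 2 and 3). Results with the replicate number as a block are therefore given where they change a call. This pairing comes from the data, since no label explains the replicate numbers. Each library is a separate mouse by the animal numbers in the labels, which differ from the replicate numbers and are not shared within an assay.

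Members, lists and tests were chosen with earlier results of these data known. Named in the text are all families, anticodons outside tRNA-Gly that passed with the deposited CPM, the block or a scaling, with the 6 largest rises and 6 largest falls, isodecoders outside tRNA-Gly that passed under a scaling or were among the 8 smallest p with the block in each direction, and the 6 smallest p among ratios of each kind. Alternatives were 4 scalings, pseudocounts of 0.5 and 5, the block, each mouse left out, isodecoders within 5% of each other in every library counted once, a minimum of 100 CPM and a fold of 1.5. Added after the data were seen were limma-voom on the recovered reads, limma without trend, the sum outside tRNA-Gly and Gln-CTG as a scale, and the grouping by bases at positions 48 to 50. Gene sequences were read from RefSeq on GRCm38.p6. Sequences are given for some of the anticodons described.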

Additional observations from a re-analysis of the deposited data

How the results depend on the processing

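Counts of calls moved with the block, with scaling and with KO mouse 3. Lower and higher isodecoders numbered 8 and 0 in the deposited CPM, 28 and 4 with the replicate block, 27 and 16 with block and median log ratio, and 32 and 3 with block and the sum outside tRNA-Gly. Higher isodecoders were 2 with the sum of isodecoders, the median log ratio, quantile normalization or the sum outside tRNA-Gly and Gln-CTG. Lower and higher anticodons numbered 2 and 0, against 6 and 1 with the block, 8 and 6 with block and median log ratio, 8 and 1 with block and the sum outside tRNA-Gly, and 1 and 1 with quantile normalization. Lower and higher families numbered 1 and 0, against 2 and 1, 3 and 5, and 3 and 1 in the same 3 block fits. Higher families were 1 with the median log ratio, 3 with quantile normalization and 1 with the sum outside tRNA-Gly and Gln-CTG. Ratios of isodecoders numbered 6, against 21 with the block and 1 with a minimum of 100 CPM, and ratios of anticodons 1, against 4 with the block.

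With each mouse left out, lower isodecoders ranged from 4 (without KO mouse 1 or WT mouse 2) to 23 (without KO mouse 3) and higher ones from 0 to 1 (without WT mouse 3). Lower anticodons ranged from 2 to 9 (without KO mouse 3), isodecoder ratios from 0 to 2 and anticodon ratios from 0 to 2. The differences between genotypes ranged from -51926 to -3000 CPM for the sum (-25113 with all mice), from -8.71 to -5.75 percentage points for tRNA-Gly and from 6.93 to 11.2 for Gln-CTG. Of 12 named anticodons 1 changed sign in 192 alternatives, Tyr-GTA, whose log2 fold change ranged from -0.014 (without KO mouse 3) to 0.49 (without KO mouse 1), and of 13 named isodecoders 0 did in 208. Pseudocounts, limma without trend, limma-voom, counting near-identical isodecoders once and the fold of 1.5 moved no count of calls by over 1.5 times, while with near-identical isodecoders counted once the genotypes differed by -6778 CPM in the sum and by -4.01 percentage points in tRNA-Gly. Depth was lowest for the rare isodecoders, at 52.3 reads in the least. What limits the calls was not tested. The cause of the differences between settings was not tested.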
